A study of Homo sapiens with 4 samples.

Results

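The genes described here are HMOX1 and 9 others that break down haem, store and move iron, or control that programme. They were taken by symbol (HMOX1, HMOX2, BLVRA, BLVRB, FTL, FTH1, TFRC, SLC40A1, BACH1 and NFE2L2), and all 10 were found among the 20289 genes of the deposited table. Of the 10, 9 reached the minimum of 20 counts in at least 1 library and SLC40A1 did not. The genes were chosen with results of these data known, that is, they were chosen by function around HMOX1, whose counts and FPKM had been seen to differ between the conditions. Their values are therefore a description, and no p was computed for them.

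RNA came from SUM159-R, a paclitaxel-resistant derivative of the human triple-negative breast cancer line SUM159, given in the labels as wild type in genotype. The combination library came from cells given paclitaxel at 500 nM and enzastaurin at 2.5 µM, the paclitaxel library from cells given 500 nM paclitaxel, the enzastaurin library from cells given 2.5 µM enzastaurin, and the DMSO library from vehicle-treated cells. Each treatment lasted 24 h, and all 4 groups share a line kept in 150 nM paclitaxel; its withdrawal before treatment was not given in the sources used here. Paclitaxel stabilises microtubules and enzastaurin inhibits protein kinase C, and the series asks what protein kinase C inhibition does in chemotherapy-resistant cells. Each condition has 1 library, so every interval below is a 95% interval for counting error, and no difference could be set against the spread between cultures.

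Total counts were 18236527 in the combination, 24699948 in paclitaxel, 21959564 in enzastaurin and 22576953 in DMSO. Levels are in CPM, the count scaled by library total and TMM factor. The line carried its mesenchymal markers, with VIM at 3684, 4077, 3957 and 4694 CPM in the combination, paclitaxel, enzastaurin and DMSO libraries. PGR had 0 counts in every library and ESR1 had 0 to 3, while ERBB2 was at 65.4, 76.1, 83.4 and 91.1 CPM in the same order. Of the haemoglobin genes, HBA2 had 10, 6, 0 and 0 counts, HBG2 had 6, 5, 0 and 1, and HBA1 had 0, 0, 1 and 5 in the same order, and HBB and HBG1 had 0 in every library. The 3 detected genes thus summed to 16, 11, 1 and 6 counts, higher in both libraries with paclitaxel, and their part in the results was not tested; reads of HBA1 and HBA2 are hard to tell apart. The 5 macrophage and leukocyte markers summed to 36, 78, 45 and 65 counts in the same order, with SPIC at 0 in every library.

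Haem oxygenases open the haem ring and release iron, carbon monoxide and biliverdin, which biliverdin reductases turn into bilirubin. Ferritin stores the iron, the transferrin receptor brings iron in and ferroportin lets it out. NRF2, encoded by NFE2L2, drives HMOX1 and the ferritin genes under oxidative or electrophilic stress, and BACH1 is a haem-sensing repressor of the same genes. Iron also acts after transcription: when iron is scarce, iron regulatory proteins bind hairpins in mRNA, which blocks translation of ferritin and stabilises the transferrin receptor message.

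Those hairpins, called iron-responsive elements, are shown because they are the sequence feature that FTH1, FTL and TFRC share. The motif searched was CNNNNNCAGTGN followed by bases that pair with the run after the C, with G-T pairs allowed, read on the sense strand of GENCODE 29 transcripts (GRCh38, the same build as hg38). It was present in 0.577% of 206694 transcripts and at 7 places in the 10 genes, of which 4 lie in the 3' UTR of TFRC and the others in the 5' UTR of FTH1, FTL and SLC40A1. Capitals mark the loop bases.
FTH1, 5' UTR, chr11:61967574-61967602, minus strand: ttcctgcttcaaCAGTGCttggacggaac
FTL, 5' UTR, chr19:48965335-48965363, plus strand: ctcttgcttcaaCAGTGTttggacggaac
TFRC, 3' UTR, chr3:196050979-196051007, minus strand: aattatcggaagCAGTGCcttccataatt
TFRC, 3' UTR, chr3:196050575-196050603, minus strand: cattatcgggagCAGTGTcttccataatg
TFRC, 3' UTR, chr3:196050510-196050538, minus strand: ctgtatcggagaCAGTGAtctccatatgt
TFRC, 3' UTR, chr3:196050463-196050491, minus strand: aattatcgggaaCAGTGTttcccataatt

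HMOX1 was the gene of the 10 that moved most, and it rose with paclitaxel whether or not enzastaurin was present. HMOX1 (ENSG00000100292; hg38 chromosome 22, 35380361 to 35394214, plus strand) encodes the inducible haem oxygenase. Its counts were 6167 in the combination, 5014 in paclitaxel, 2345 in enzastaurin and 1810 in DMSO. Scaled for depth, HMOX1 stood at 342 CPM (334 to 351) in the combination, 202 CPM (196 to 207) in paclitaxel, 106 CPM (102 to 111) in enzastaurin and 80.2 CPM (76.5 to 83.9) in DMSO. The counting intervals of neighbours in that order did not overlap, with the combination highest and DMSO lowest. In bulk RNA, a larger share of cells that express a gene and more RNA per cell cannot be told apart.

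**Figure D1:**
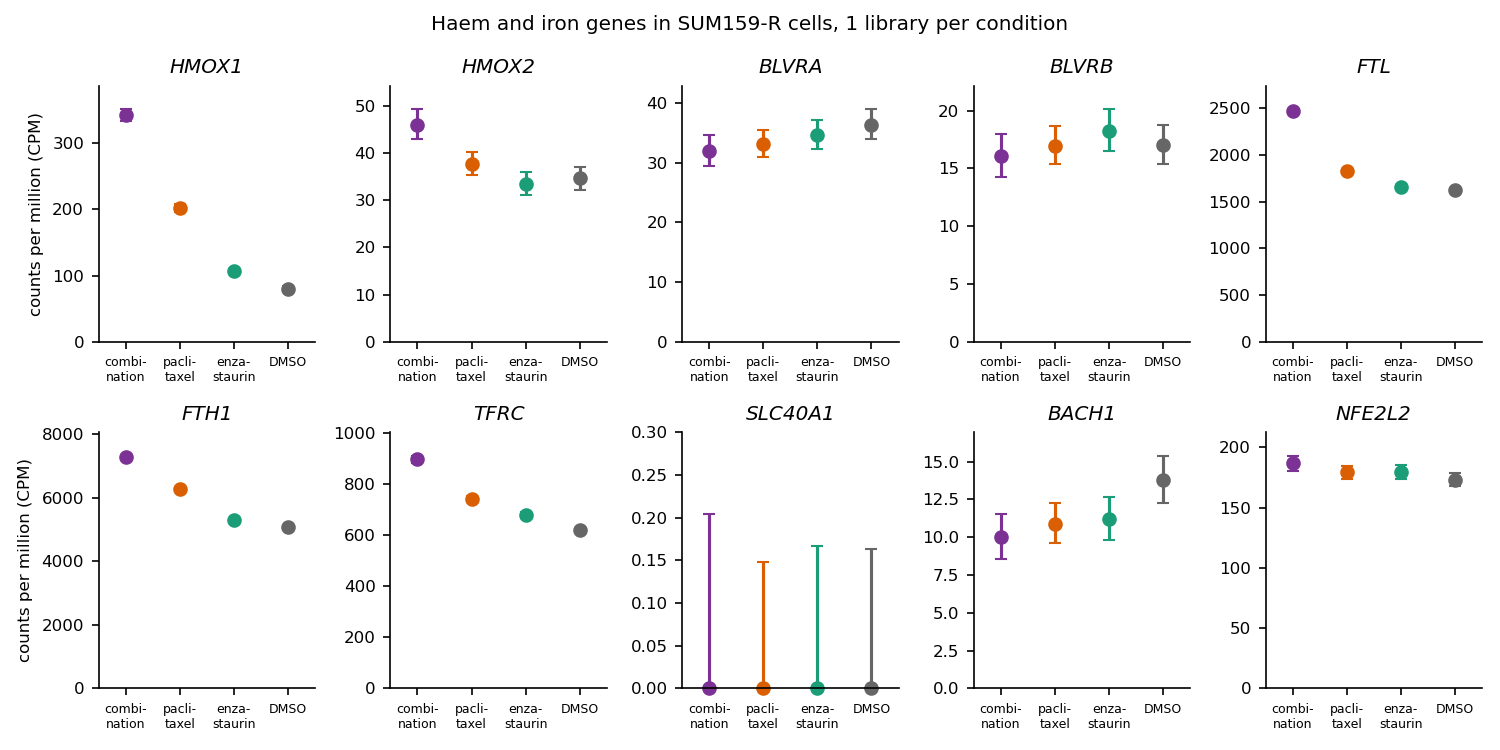
Level of each gene in CPM (vertical axis, starting at 0) in the combination, paclitaxel, enzastaurin and DMSO libraries; points are single libraries and bars are 95% Poisson intervals for counting error. HMOX1 is highest in the combination at 342 CPM and lowest in DMSO at 80.2 CPM, BACH1 has the opposite ends at 9.99 and 13.8 CPM, and SLC40A1 is at 0 throughout.

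A gene was called when its scaled ratio reached 2-fold, its interval excluded no difference and the higher library held at least 20 counts. HMOX1 was 4.27-fold higher (4.05 to 4.50) in the combination than in DMSO, which placed it 23rd from the top of 11840 genes. It was 3.22-fold higher (3.07 to 3.38) in the combination than in enzastaurin, and 2.52-fold higher (2.38 to 2.66) in paclitaxel than in DMSO. These last comparisons share no library, although their scaling factors came from all 4 libraries, and both put paclitaxel on top. In each of the 3 comparisons HMOX1 was the only gene of the 9 called, against 1.01% of 11843 genes called higher and 5.53% lower in combination over DMSO, 0.929% and 5.43% in combination over enzastaurin, and 0.811% and 0.431% in paclitaxel over DMSO. Because HMOX1 was picked for this pattern, nothing is read from that count or from the likeness of the 2 paclitaxel comparisons.

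Adding enzastaurin gave smaller differences in HMOX1 than adding paclitaxel. On the log2 scale the difference was 0.76 (0.71 to 0.82) in combination over paclitaxel and 0.41 (0.32 to 0.50) in enzastaurin over DMSO. These comparisons share no library either, and the same limits of scaling and choice of gene hold for them. None of the 9 genes reached 2-fold there, against 0.574% of genes called higher and 4.17% called lower in combination over paclitaxel, and 0.439% and 0.448% in enzastaurin over DMSO. At a limit of 1.5-fold HMOX1 passed in combination over paclitaxel, where 1.9% of genes were called higher. The 2 enzastaurin differences of HMOX1 were unequal by 0.36 (0.25 to 0.46) on the log2 scale, the amount by which the combination lay above the sum of the single-drug effects, and by 0.22 with a trend in transcript length and GC content removed. Of 11813 genes, 88.4% had a lower value of that departure, so its size was not rare in these libraries.

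**Figure D2:**
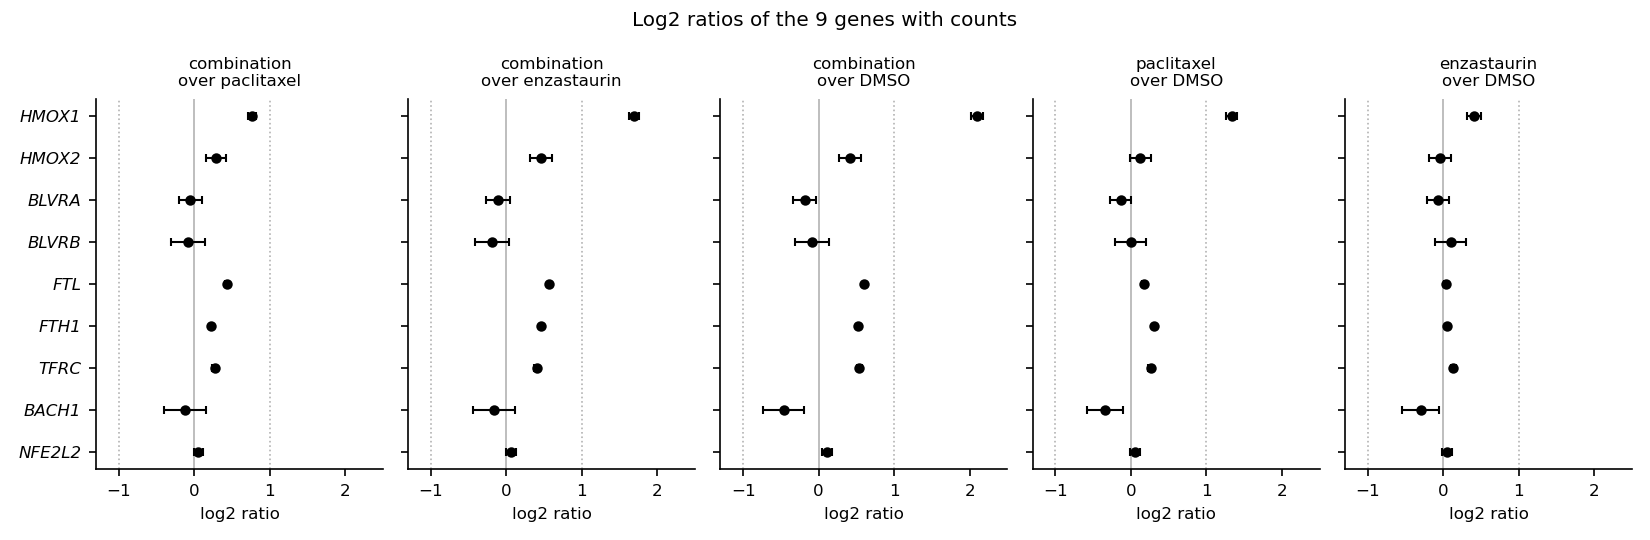
Log2 ratio (horizontal axis) of the 9 genes with counts in each of the 5 comparisons; bars are 95% intervals for counting error, the solid line marks no difference and the dotted lines mark 2-fold. HMOX1 passes 2-fold in 3 panels, and no other gene does so in any panel.

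HMOX2 (chromosome 16, 4474690 to 4510347, plus strand) encodes the constitutive haem oxygenase, and it moved far less. Its counts were 829 in the combination, 935 in paclitaxel, 740 in enzastaurin and 781 in DMSO. Scaled levels were 46.0 CPM (42.9 to 49.2) in the combination, 37.6 CPM (35.2 to 40.1) in paclitaxel, 33.5 CPM (31.1 to 36.0) in enzastaurin and 34.6 CPM (32.2 to 37.1) in DMSO. The combination was above the other libraries beyond counting error, while the intervals of the single drugs and DMSO overlapped. HMOX2 was at 0.41 (0.27 to 0.55) on the log2 scale in combination over DMSO, short of 2-fold. NMRAL1 overlaps HMOX2 on the opposite strand over 21074 bases, and use of strand in the counting was not given in the sources used here. NMRAL1 was lowest in the combination, with 341 counts there, 522 in paclitaxel, 535 in enzastaurin and 542 in DMSO.

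Within a library the ratio of the haem oxygenases is free of depth scaling. HMOX1 counts exceeded HMOX2 counts 7.44-fold (6.92 to 8.01) in the combination, 5.36-fold (5.00 to 5.76) in paclitaxel, 3.17-fold (2.92 to 3.45) in enzastaurin and 2.32-fold (2.13 to 2.52) in DMSO. Per transcript length, the deposited FPKM of HMOX1 was 6.06, 4.33, 2.45 and 1.92 times that of HMOX2 in the same order. The inducible enzyme was thus the more abundant message in every library, DMSO included.

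The bilirubin-forming enzymes did not follow HMOX1. BLVRA (chromosome 7, 43758680 to 43807342, plus strand), the main biliverdin reductase, was at 32.0 CPM (29.5 to 34.7) in the combination, 33.2 CPM (30.9 to 35.5) in paclitaxel, 34.6 CPM (32.2 to 37.2) in enzastaurin and 36.4 CPM (34.0 to 39.0) in DMSO. All 4 intervals overlap, although the ratio of combination over DMSO had its interval just below 0, at -0.19 (-0.34 to -0.03) on the log2 scale and -0.30 with the length and GC trend removed. BLVRB (chromosome 19, 40447765 to 40465840, minus strand), which also reduces flavins, had 289 counts in the combination, 421 in paclitaxel, 403 in enzastaurin and 384 in DMSO. Its log2 ratios lay between -0.19 and 0.10 (-0.29 and 0.19 with the trend removed), with 0 inside the uncorrected interval in all 5 comparisons.

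The ferritin genes were among the most abundant messages of the cells and were higher in the combination, without reaching 2-fold. FTH1 (chromosome 11, 61959718 to 61967660, minus strand) encodes the heavy chain, which oxidises iron for storage. Its level was 7279 CPM (7240 to 7319) in the combination, 6262 CPM (6231 to 6293) in paclitaxel, 5283 CPM (5253 to 5314) in enzastaurin and 5084 CPM (5054 to 5113) in DMSO. By deposited FPKM, FTH1 ranked 2nd, 4th, 7th and 7th of all genes in the same order. FTL (chromosome 19, 48965301 to 48966878, plus strand) encodes the light chain, which helps form the iron core. FTL was at 2465 CPM (2442 to 2488) in the combination, 1827 CPM (1811 to 1844) in paclitaxel, 1659.7 CPM (1643 to 1677) in enzastaurin and 1622 CPM (1605 to 1639) in DMSO. The order of the libraries was that of HMOX1 for both chains, but the distance between enzastaurin and DMSO was small, at 0.06 (0.04 to 0.07) on the log2 scale for FTH1 and 0.03 (0.01 to 0.05) for FTL, or 0.10 and 0.11 with the length and GC trend removed.

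FTH1 and FTL together took 0.963% (0.958 to 0.967, Wilson) of all counts in the combination, 0.814% (0.810 to 0.817) in paclitaxel, 0.698% (0.695 to 0.702) in enzastaurin and 0.671% (0.667 to 0.674) in DMSO. The chains did not move in step. The ratio of FTH1 to FTL counts was 2.95 (2.92 to 2.99) in the combination, 3.43 (3.39 to 3.46) in paclitaxel, 3.18 (3.15 to 3.22) in enzastaurin and 3.13 (3.10 to 3.17) in DMSO. The ratio was thus highest in paclitaxel and lowest in the combination, with neither interval overlapping that of DMSO. In combination over paclitaxel, FTL was at 0.43 (0.41 to 0.45) on the log2 scale and FTH1 at 0.22 (0.21 to 0.23). With that trend removed, those values were 0.32 and 0.08, and in combination over enzastaurin FTH1 went to 0.28 against 0.46 without the correction. Ferritin genes have many processed pseudogenes, and BEST1 overlaps FTH1 on the opposite strand, with 132 counts in the combination, 233 in paclitaxel, 219 in enzastaurin and 140 in DMSO.

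TFRC (chromosome 3, 196027183 to 196082189, minus strand), the receptor that takes up transferrin-bound iron, was higher alongside ferritin. Its counts were 16188 in the combination, 18474 in paclitaxel, 15004 in enzastaurin and 13995 in DMSO. After scaling, TFRC stood at 898 CPM (884 to 912) in the combination, 743 CPM (733 to 754) in paclitaxel, 679.6 CPM (669 to 691) in enzastaurin and 619.7 CPM (609.5 to 630.1) in DMSO. Neighbouring libraries in that order were separated by more than counting error. In combination over DMSO, the log2 ratio was 0.54 (0.50 to 0.57) for TFRC, 0.52 (0.51 to 0.53) for FTH1 and 0.60 (0.58 to 0.62) for FTL. At a limit of 1.5-fold FTL and HMOX1 passed there, where 3.49% of genes were called higher. The ratio of FTH1 to TFRC counts was lowest in enzastaurin, at 7.77 (7.64 to 7.91), and highest in paclitaxel, at 8.42 (8.30 to 8.55). It was 8.10 (7.97 to 8.24) in the combination and 8.20 (8.06 to 8.35) in DMSO. The intervals of enzastaurin and paclitaxel did not overlap. The elements printed above thus belong to messages that differed in the same direction here, and their part in the levels was not tested.

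**Figure D3:**
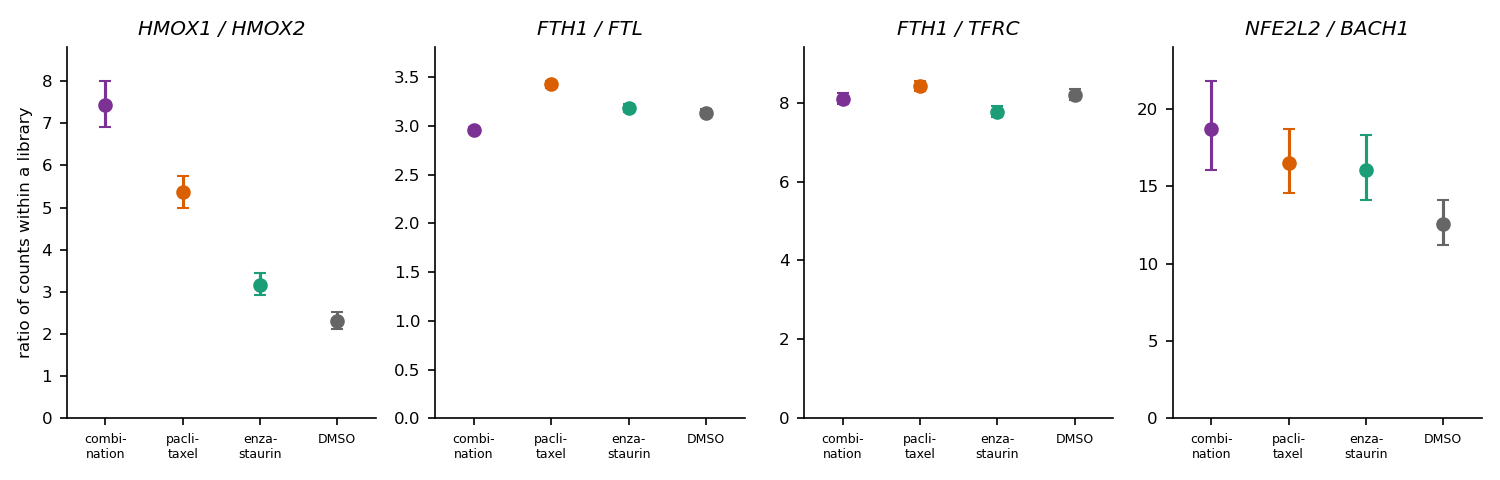
Ratios of counts between genes of the same library (vertical axes, starting at 0) in the combination, paclitaxel, enzastaurin and DMSO libraries; bars are exact 95% intervals for counting error. HMOX1 over HMOX2 spans 7.44 to 2.32, while FTH1 over TFRC lies between 7.77 and 8.42.

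SLC40A1 (chromosome 2, 189560579 to 189583758, minus strand), which encodes ferroportin, the iron exporter of animal cells, had 0 counts in all 4 libraries. A count of 0 allows up to 0.166 CPM in the combination, 0.121 CPM in paclitaxel, 0.136 CPM in enzastaurin and 0.133 CPM in DMSO, taking 3 counts per library as the limit. Its transcript was therefore not detectable at this depth in any condition.

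NFE2L2 (chromosome 2, 177227595 to 177392697, minus strand), which encodes NRF2, had nearly level mRNA. It had 3364 counts in the combination, 4458 in paclitaxel, 3966 in enzastaurin and 3908 in DMSO. The scaled values were 187 CPM (180.4 to 193) in the combination, 179 CPM (174 to 185) in paclitaxel, 179.6 CPM (174 to 185) in enzastaurin and 173 CPM (168 to 179) in DMSO. Its largest log2 ratio was 0.11 (0.04 to 0.18), in combination over DMSO, or 0.063 with the length and GC trend removed, and the intervals of the other 4 comparisons included 0. NRF2 is controlled mostly through protein stability, which was not measured.

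BACH1 (chromosome 21, 29194071 to 29630751, plus strand), the haem-sensing repressor, was highest in DMSO by scaled counts, but in paclitaxel by FPKM, as given below. Its counts were 180 in the combination, 270 in paclitaxel, 247 in enzastaurin and 311 in DMSO. Levels were 9.99 CPM (8.58 to 11.6) in the combination, 10.9 CPM (9.61 to 12.2) in paclitaxel, 11.2 CPM (9.84 to 12.7) in enzastaurin and 13.8 CPM (12.3 to 15.4) in DMSO. The intervals of the 3 treated libraries overlap one another, that of enzastaurin also overlaps DMSO, and those of the combination and, narrowly, paclitaxel lie below it. Against DMSO, the log2 ratio of BACH1 was -0.46 (-0.74 to -0.19) for the combination, -0.34 (-0.58 to -0.10) for paclitaxel and -0.30 (-0.55 to -0.05) for enzastaurin. None passed 2-fold, and the 3 values share the DMSO library.

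The deposited FPKM values of BACH1 gave another picture: 2.06 in the combination, 3.54 in paclitaxel, 2.25 in enzastaurin and 3.38 in DMSO. On the log2(FPKM + 1) scale paclitaxel over DMSO turned to 0.052, and combination over paclitaxel went to -0.57, against -0.12 from counts. The transcript length implied by the counts and FPKM together was 4791 bases in the combination, 3088 in paclitaxel, 4999 in enzastaurin and 4075 in DMSO. For HMOX1 the same quantity stayed between 1544 and 1550 bases. The direction of BACH1 in paclitaxel therefore depends on the unit. The count ratio of NFE2L2 to BACH1 was 18.7 (16.1 to 21.8) in the combination, 16.5 (14.6 to 18.7) in paclitaxel, 16.1 (14.1 to 18.3) in enzastaurin and 12.6 (11.2 to 14.1) in DMSO. In FPKM that ratio was 37.0, 20.9, 33.4 and 20.9 in the same order, so paclitaxel and DMSO were alike in that unit.

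RefSeq start regions (GRCh38.p14, 250 bases before to 50 after each start) were used for 8 of the 10 genes (all but HMOX1 and FTH1), with 12 regions in all. The NRF2-type element TGACNNNGC, searched on both strands, was in none of the 12 and in 13.3% of 35116 regions of the table. TGAGTCA, the core shared by AP-1 and Maf-type sites, was in 1 of the 12 and in 4.95% of all regions. The match lies before the start of 1 of the 3 BACH1 regions in the RefSeq table, a start inside the GENCODE span given above. That stretch is shown because BACH1 is the gene of the set that was lowest in the combination relative to DMSO; capitals mark the match.
BACH1, chr21:29298844-29298910, plus strand: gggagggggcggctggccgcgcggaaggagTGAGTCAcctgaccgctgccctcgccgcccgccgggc

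**Figure D4:**
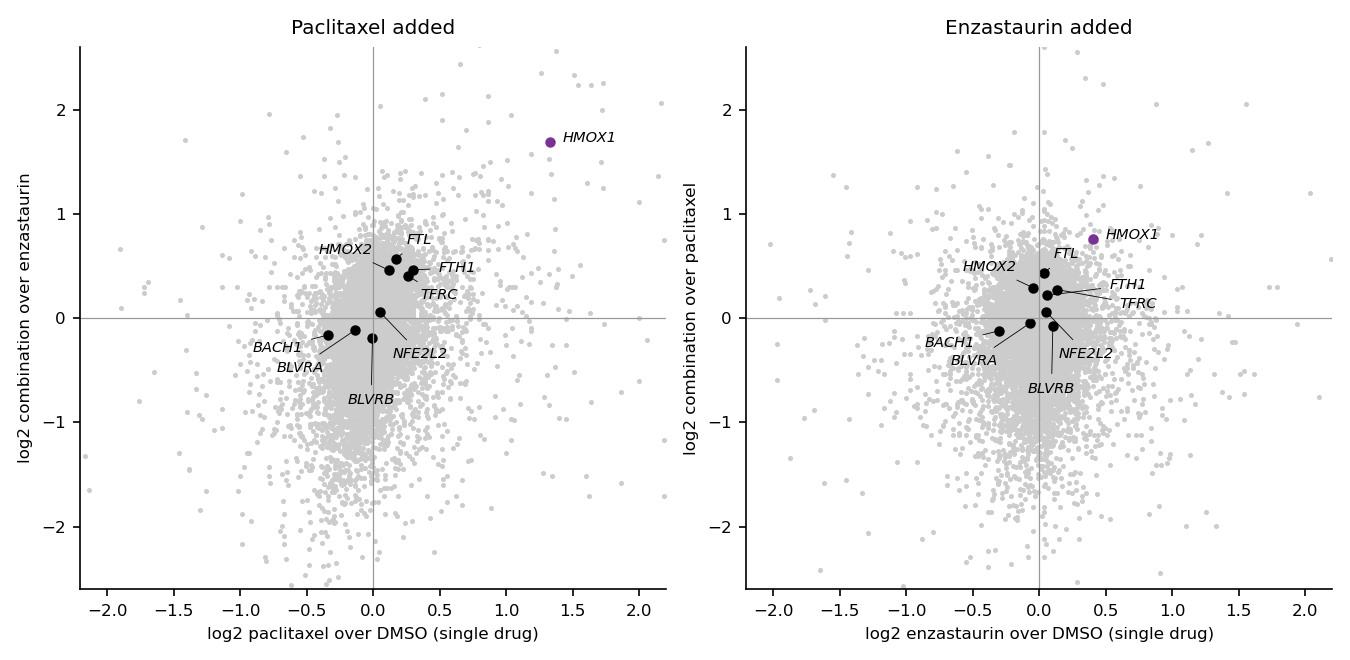
Left, log2 ratio of combination over enzastaurin (vertical axis) against paclitaxel over DMSO (horizontal axis); right, combination over paclitaxel against enzastaurin over DMSO. Grey points are the 11843 tested genes (63 on the left and 55 on the right lie outside the axes), black points the named genes and the purple point HMOX1, at 1.69 against 1.33 on the left and 0.76 against 0.41 on the right.

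Genes with a profile like that of HMOX1 were ranked by the Euclidean distance between log2 CPM values over the 4 libraries, each centred on its own mean, among the 10096 genes whose mean count reached 100. The nearest was AKR1C2, at a distance of 0.13, with 398 CPM in the combination, 237 in paclitaxel, 138 in enzastaurin and 94.7 in DMSO. AKR1C1 came next at 0.27, and AKR1C3 was seventh at 0.71. These aldo-keto reductase genes are neighbours with similar sequences, so the split of reads among them is uncertain. Between and after them came GRAMD1B (0.44), a sterol transporter gene, ARRDC4 (0.47), an arrestin-domain gene, the histone gene H2BC12 (0.49) and DDIT3 (0.60), which encodes the stress factor CHOP. TIMM23B-AGAP6 (0.73), NPIPB3 (0.76) and RNF145 (0.77) closed the 10, and the first of these is a readthrough gene and the second a member of a multicopy family. A distance over 4 libraries is a description of likeness only, and 4 of the 10 genes were named when genes with a mean of 20 counts were admitted.

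Other NRF2 targets were the only pathway list with genes past 2-fold. Of 24 tested members, 5 rose and 0 fell in combination over DMSO, where 1.01% of all genes rose and 5.53% fell. They were AKR1C2, at 2.07 on the log2 scale, AKR1C1, at 1.80 (1.67 to 1.93), AKR1C3, at 1.25 (1.15 to 1.35), UGDH, which makes UDP-glucuronate, at 1.22 (1.15 to 1.30), and GCLM, a subunit of the enzyme that starts glutathione synthesis, at 1.03 (0.93 to 1.12). The list's median was 0.54, against -0.03 for all genes. Because the list was chosen with earlier results of these data known, nothing is read from its counts and medians. The split of reads among the AKR1C genes is also uncertain, as said above, so their calls may not be separate. In paclitaxel over DMSO, where 0.811% of all genes were called higher and 0.431% lower, AKR1C2 and AKR1C1 rose. The list's median there was 0.15, against 0.00 for all genes. In enzastaurin over DMSO, where 0.439% of all genes were called higher and 0.448% lower, 0 of the 24 passed. The list's median there was 0.12. UGDH was at 244 CPM in the combination, 128 in paclitaxel, 109 in enzastaurin and 105 in DMSO, so it stood apart in the combination library.

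**Figure D5:**
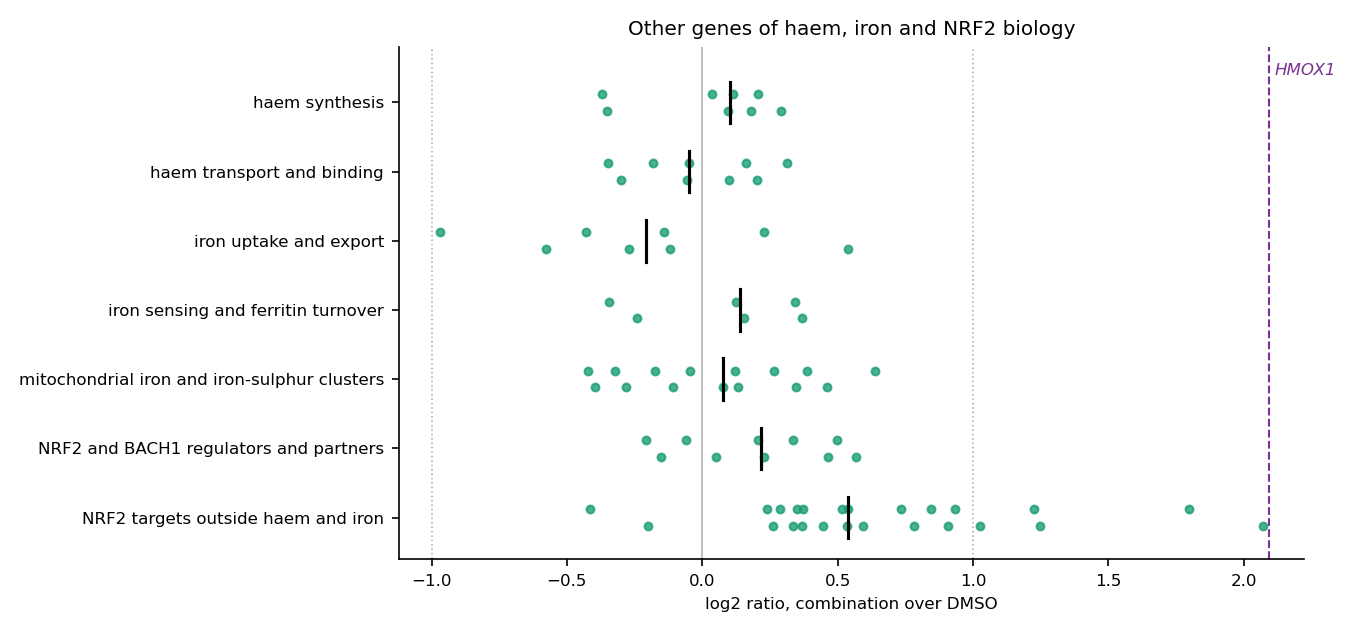
Log2 ratio of combination over DMSO (horizontal axis) for each tested gene of 7 pathway lists; green points are genes, black bars list medians, dotted lines 2-fold and the dashed line HMOX1 at 2.09. The NRF2 targets have a median of 0.54, and no gene of the other 6 lists passes 2-fold.

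No tested gene of the 5 other haem and iron lists was called at 2-fold in any of the 5 comparisons, where 1.01% of all genes were called higher and 5.53% lower in combination over DMSO alone. Shares in the other comparisons are given above, and nothing is read from that absence. At 1.5-fold, HSCB was called higher in combination over paclitaxel and over DMSO, where 1.9% and 3.49% of all genes were. TF was called lower in combination over paclitaxel, as were 1320 of the 11843 genes. Of the 8 haem synthesis genes, ALAD, the second enzyme of the pathway, was at -0.37 (-0.53 to -0.21) and PPOX, a late mitochondrial enzyme, at -0.35 (-0.75 to 0.05) on the log2 scale in combination over DMSO. The median of the 8 was 0.10, against -0.03 for all genes. Of 9 haem transport and binding genes (median -0.05), SLC48A1, the lysosomal haem transporter, was at -0.35 (-0.53 to -0.16) and PGRMC1, a haem-binding membrane protein, at 0.31 (0.24 to 0.39).

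Among 8 tested genes of iron uptake and export (median -0.21), SLC39A14, a zinc and iron importer, was at 0.54 (0.47 to 0.60) in combination over DMSO. HEPH, which encodes the ferroxidase hephaestin and was named after its value was seen, had 11 counts in the combination, 24 in paclitaxel, 14 in enzastaurin and 27 in DMSO. These few counts put HEPH at -0.97 (-2.13 to 0.09) in combination over DMSO. TF, which encodes transferrin, had 77 counts in the combination, 184 in paclitaxel, 131 in enzastaurin and 144 in DMSO, which put the combination at -0.58 against DMSO on the log2 scale. The transcript length implied by its counts and FPKM was 19938 to 20166 bases, and how much of these counts is transferrin message was not tested. Of 6 tested genes of iron sensing and ferritin turnover (median 0.14), NCOA4, which delivers ferritin to lysosomes, was at 0.37 (0.31 to 0.42), and ACO1, which encodes iron regulatory protein 1, at -0.34 (-0.42 to -0.27). Of 15 genes of mitochondrial iron and iron-sulphur clusters (median 0.08), the co-chaperone gene HSCB was at 0.64 (0.30 to 0.98) and GLRX5, a cluster carrier, at 0.46 (0.35 to 0.58).

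None of the 10 tested upstream regulators was called at 2-fold in any comparison. In combination over DMSO, 1.01% of all genes were called higher and 5.53% lower. With shares this small, nothing is read from the absence of calls among 10 genes. Of these regulators and partners of NRF2 and BACH1 (median 0.22 in combination over DMSO), SQSTM1, which encodes the KEAP1-binding autophagy receptor p62, was at 0.57 (0.52 to 0.61). CUL3, the scaffold of the ligase that marks NRF2 for destruction, was at 0.50 (0.43 to 0.57). SQSTM1 levels were 457 CPM in the combination, 375 in paclitaxel, 349.9 in enzastaurin and 309 in DMSO. CUL3 levels were 198, 156, 149 and 140 CPM in the same libraries. Both genes thus had the order of the HMOX1 levels over a narrower range. How many of all genes share that order was not counted.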

How the data were processed

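Per the labels, 4 SUM159-R libraries were made from total RNA with random primers and read on a NovaSeq6000. The authors deposited 1 table of expected counts and FPKM values per Ensembl gene, made with RSEM and hg38 per the submitters' processing notes; the aligner and tool versions were not given in the sources used here. Expected counts as deposited carry no depth scaling, and per library 10.7% to 11.4% are not whole. FPKM, as the authors deposited it, is relative to length and depth.

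Counts were rounded and scaled by TMM (edgeR 4.0.16, R 4.3.3). Ratios have conditional Clopper-Pearson intervals, levels exact Poisson intervals, and the departure from additivity a normal interval on log counts. Intervals and floors treat reads as independent and cover counting error only. Reads carry no molecular identifiers and need not be independent, so the intervals may be too narrow even for counting error. With 1 library per condition, a comparison of conditions leaves no residual degrees of freedom for the quasi-likelihood test of edgeR; a fit that assumes additive drug effects would leave 1 and was not run. The tested set was 11843 genes, those reaching 20 counts in some library. Ensembl IDs of 99.4% of genes matched GENCODE 29, the source of coordinates.

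The genes, the lists and the naming rule were chosen with earlier results of these data known. That rule named all 10 genes, in each list up to 4 genes past 2-fold or otherwise the 2 largest in combination over DMSO among genes averaging 20 counts or more, and the 10 nearest to HMOX1; GCLM and HEPH were named after their values were seen. Alternatives were DESeq2 1.42.0 size factors, library totals, FPKM with a pseudocount of 1 or 0.1, other count minimums and a 1.5-fold limit; removal of a length and GC trend (the median of the 500 nearest genes) was chosen after seeing the data. Other tools were scipy 1.17.1, numpy 2.4.6 and matplotlib 3.10.9 under Python 3.11.15, with pandas 2.3.3.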

Additional observations from a re-analysis of the deposited data

How the results depend on the processing

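No paired analysis was possible because every condition has 1 library, and for the same reason no library could be left out. The planned sum of FTH1 and FTL with their pseudogenes was not run, since 0 such symbols stood in the table used here. Of the 45 log2 ratios of the 9 genes, 41 stayed inside their counting interval with DESeq2 size factors, 40 with library totals, 38 with FPKM and a pseudocount of 1, 37 with 0.1, and 30 with the length and GC trend removed. HMOX1 then moved to 0.70 in combination over paclitaxel and 1.61 in combination over enzastaurin, its departure from additivity to 0.22, and that of FTH1 reversed to -0.020. BACH1 in paclitaxel over DMSO turned to 0.052 and 0.065 with FPKM and a pseudocount of 1 and 0.1. A 1.5-fold limit called 1 of the 9 genes in combination over paclitaxel and 2 in combination over DMSO. In the order of combination over paclitaxel, enzastaurin and DMSO, then paclitaxel and enzastaurin over DMSO, all genes called numbered 562, 753, 775, 147 and 105. They were 1545, 1985, 1979, 321 and 274 at 1.5-fold, and 307, 441, 481, 26 and 12 with a minimum of 100 counts. With no minimum the single-drug counts were 262 and 220. Genes with few counts, BACH1 among them, have the widest intervals.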

Other observations

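Within the NRF2 target list, 2 of 24 tested genes stood below 0 in combination over DMSO while the other 22 stood above it. The all-gene median there was -0.03, and the list was chosen with earlier results of these data known. Above 0 were also 22 of the 24 in paclitaxel over DMSO and 19 in enzastaurin over DMSO. The all-gene medians there were -0.0008 and -0.002. The share of all genes above 0 was not counted, and nothing is read from these counts. ME1, which encodes a NADPH-producing malic enzyme, had 1780 counts in the combination and 2563 in DMSO, a log2 ratio of -0.20 (-0.29 to -0.11). ABCC2, which encodes a conjugate export pump, had 2415 counts in the combination and 4035 in DMSO, at -0.42 (-0.49 to -0.34), and in combination over enzastaurin it was at -0.66 (-0.74 to -0.59). Both were named after their values were seen.

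The combination departed upward from the sum of the single-drug effects in FTL by 0.40 (0.37 to 0.43) and in HMOX2 by 0.34 (0.14 to 0.53) on the log2 scale, sizes like the 0.36 of HMOX1. The departure was 0.16 (0.15 to 0.18) for FTH1 and 0.14 (0.10 to 0.19) for TFRC, and the intervals of BLVRA, BLVRB, BACH1 and NFE2L2 included 0. After removal of the length and GC trend, departures were 0.22 for HMOX1, 0.21 for FTL, 0.26 for HMOX2, 0.22 for TFRC and -0.020 for FTH1, which thus changed sign. The uncorrected median over 11813 genes was -0.02, and 90.9% of them lay below FTL. These values rest on 1 library per condition.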
